A study of Homo sapiens with 6 samples.

Results

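The genes described here are FTH1, FTL, HMOX1, TFRC, SLC40A1, NCOA4, IREB2, ACO1, SLC11A2 and PCBP1, 10 genes with known roles in storing, releasing, importing, exporting and sensing iron. They were chosen by function, with earlier results of these data known, and found by their symbols among the 60670 genes of the deposited table. Of the 10, 9 had a mean of at least 1 TPM over the 6 libraries and were tested among the 12201 genes that passed this filter. The libraries came from cultures of Ishikawa, an established human endometrial adenocarcinoma line, kept in a medium with serum and given either the solvent DMSO or 5 µM penfluridol, an antipsychotic drug of the diphenylbutylpiperidine class. There were 3 libraries in each of the 2 groups, called DMSO 1 to 3 and penfluridol 1 to 3 here, and for how long the cells were treated is not stated. Nothing in the labels says that the libraries came from separate cultures or days, so a p-value here sets a difference only against library-to-library spread, part or all of which may be technical. A single cell line was used, so the results describe that line.

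Iron that cells take up through the transferrin receptor enters a small pool of usable ferrous iron. Its surplus is stored inside ferritin, a hollow shell built from heavy (FTH1) and light (FTL) subunits, and it is freed again when the receptor NCOA4 carries ferritin to the lysosome. Haem oxygenase 1 (HMOX1) releases iron from haem, and ferroportin (SLC40A1) exports it. The iron regulatory proteins IRP1 (ACO1) and IRP2 (IREB2) bind a hairpin, the iron responsive element, when iron is scarce. In the 5′ untranslated region of the ferritin and ferroportin transcripts this binding blocks translation, whereas in the 3′ untranslated region of the TFRC transcript it protects the transcript from decay. Transcription of both ferritin genes and of HMOX1 is also raised by NRF2 and held down by BACH1. Transcript levels do not show how much ferritin protein was made.

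The hairpins are shown because they divide the genes in which they were found into those regulated at translation and those regulated at transcript decay. The search used GENCODE release 29 transcripts (GRCh38) and a window of 30 bases with an unpaired C, 5 bases, the loop CAGTGN, and 5 bases that pair with the first 5, G-T pairs allowed. The loop is in capitals, each sequence is written 5′ to 3′ on the strand of the gene, and T stands for U. FTH1, FTL and SLC40A1 each had 1 match, in the 5′ untranslated region, at chr11:61967573-61967602 (minus strand), chr19:48965335-48965364 (plus strand) and chr2:189580660-189580689 (minus strand).
FTH1: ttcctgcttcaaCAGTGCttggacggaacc
FTL: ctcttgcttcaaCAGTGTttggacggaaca
SLC40A1: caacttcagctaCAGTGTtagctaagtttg
The first and last of the TFRC matches lay at chr3:196050978-196051007 and chr3:196050462-196050491 (minus strand), and all 4 were in the 3′ untranslated region.
TFRC, first site along the transcript: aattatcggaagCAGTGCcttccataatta
TFRC, last site along the transcript: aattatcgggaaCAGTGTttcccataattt
Such a window was present in 616 of 83064 coding transcripts (0.742%) and in 171 of the 10533 tested genes searched (1.62%). These counts include windows that span exons, which were left out for the genes shown. No such window was found in the other 6 genes. They include SLC11A2, which is in the list of transcripts known to carry an iron responsive element used below. A hairpin with a mismatch or bulge within the 5 pairs would be missed, so a lack of matches does not show that the element is absent.

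Each library summed to between 994165 and 997207 TPM (a measure of transcript abundance that divides reads by transcript length and scales each library to one fixed total). TPM keeps no read counts, so the depth is unknown. The labels call the source endometrium tissue. The epithelial markers fixed for this line were abundant, at 4219 to 5317 TPM in sum in DMSO and 3051 to 3507 in penfluridol, although ESR1 was listed at 0 in 5 of the 6 libraries. DMSO 3 correlated with the penfluridol libraries at 0.945 to 0.955 across genes, and the 3 DMSO libraries correlated with each other at 0.930 to 0.960. The libraries also differed in how a transcript's level followed its GC content. Relative to a gene's mean, levels changed by -0.24, -0.52 and 0.10 on the log2 scale per 10 points of GC in DMSO 1, 2 and 3, and by 0.32, 0.23 and 0.11 in penfluridol 1, 2 and 3. Fold changes were therefore also computed after this trend, and that with transcript length, was removed from each library. They are given for the 9 tested genes, and for other called genes where removal ended the call or moved the value by over 1.5 times.

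Ferritin and haem oxygenase 1 transcripts were higher after penfluridol. FTH1 and FTL rose by 3.21-fold and 2.64-fold in mean TPM and HMOX1 by 3.08-fold, and each passed the test and was higher in every penfluridol library than in every DMSO library. The genes for uptake (TFRC), ferritin turnover (NCOA4), export (SLC40A1) and IRP2 (IREB2) had lower mean values, and none of them passed. ACO1, SLC11A2 and PCBP1 did not pass either. The test was limma on log2(TPM + 1), with p-values adjusted over all 12201 genes by the Benjamini-Hochberg method and a threshold of 0.05. It called 3 of the 9 genes higher and 0 lower, where 9.75% of all genes tested were called higher and 3.48% lower (13.2% in all). As the genes were chosen with earlier results known, their share is a description. In an unadjusted count, 4 of the 10 had groups that did not overlap with penfluridol higher, and 2 with penfluridol lower, against 23.3% and 13.6% of all genes tested. SLC40A1, counted among the 2, was under the filter of 1 TPM and so is not in the set behind these percents. The median log2 fold change was 0.03 over the 9 genes and -0.04 over all genes. With the GC and length trends removed, 3 were called higher and 1, NCOA4, lower, where 10.1% and 8.93% of all genes were called (19.1% in all). In bulk RNA, a change in the make-up of the cells and a change in RNA per cell cannot be told apart.

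**Figure D1:**
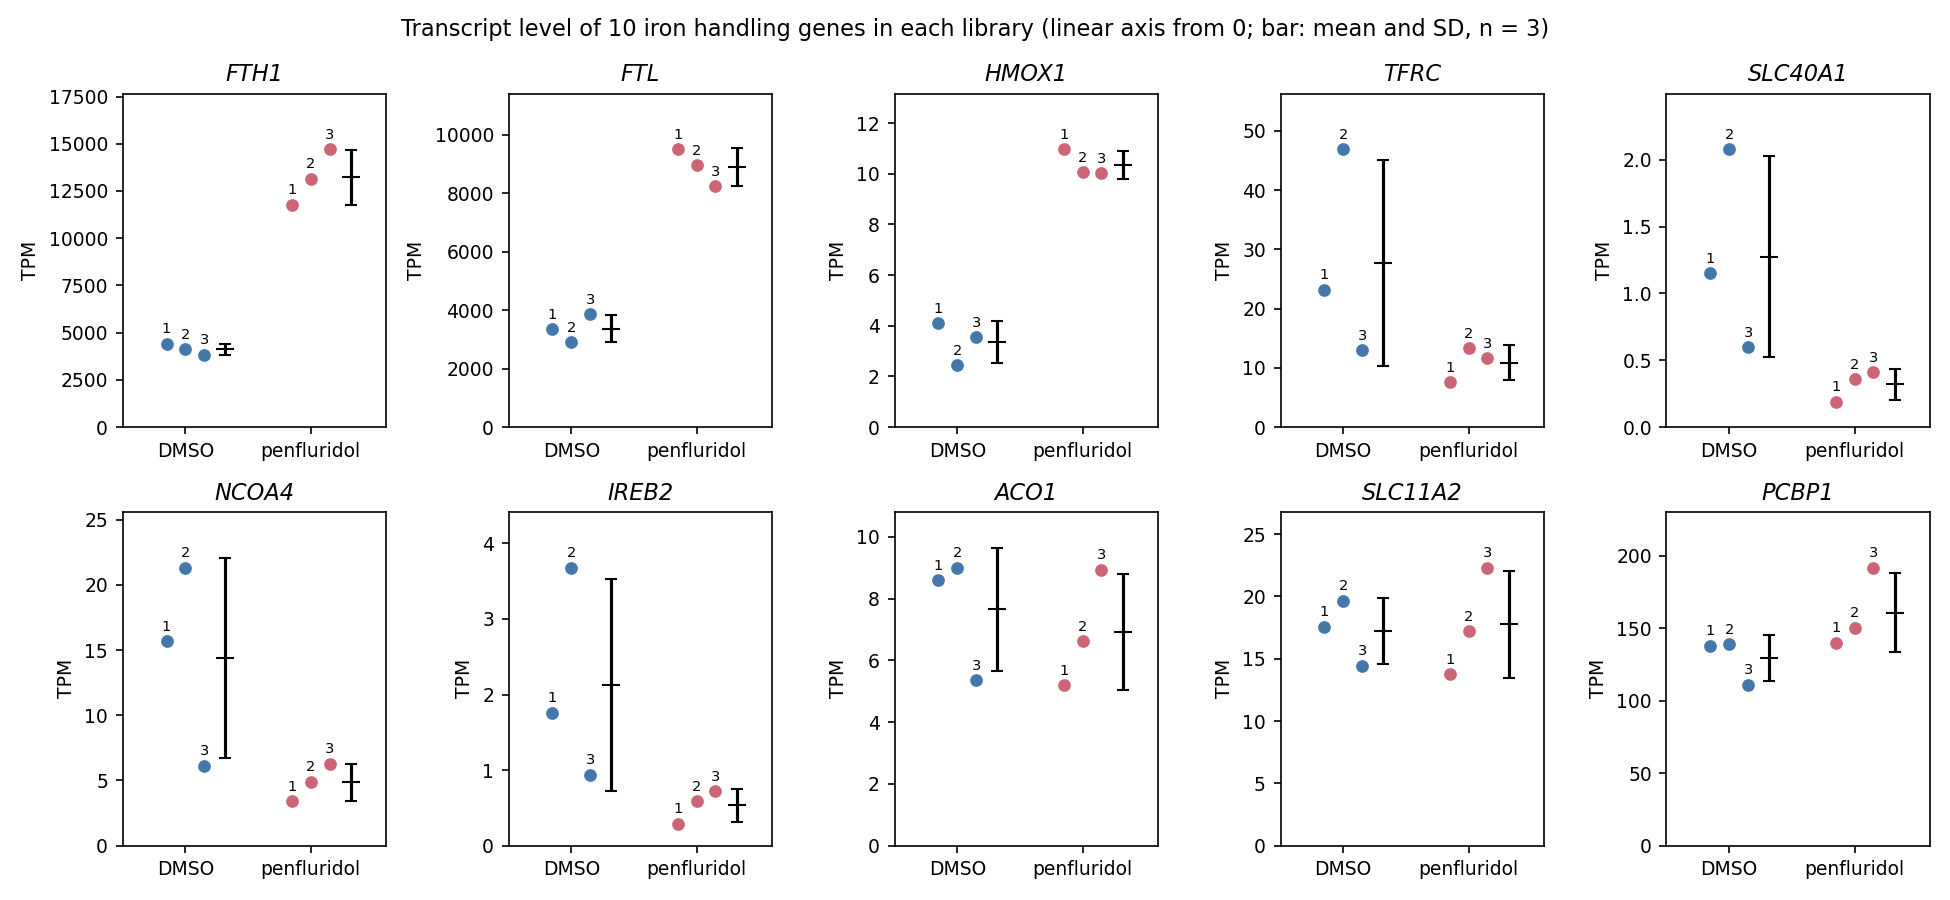
TPM of each of the 10 iron handling genes in each library (points, numbered by library) with the mean and SD of each group of 3 (bars). Penfluridol libraries lie above all DMSO libraries for FTH1, FTL, HMOX1 and PCBP1 and below them for SLC40A1 and IREB2.

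FTH1 (ENSG00000167996, chr11:61959718-61967660, minus strand) encodes the heavy ferritin subunit, which oxidises ferrous iron so that it can be stored. It stood at 4419, 4119 and 3832 TPM in DMSO 1, 2 and 3 and at 11784, 13150 and 14716 TPM in penfluridol 1, 2 and 3. The groups were far apart and the spread within each was small. The mean rose from 4123 ± 294 to 13217 ± 1467 TPM (SD, n = 3), and the gene moved from rank 39 to rank 5 among all genes ordered by mean TPM. Its log2 fold change was 1.68 (SE 0.13, 95% interval 1.37 to 1.98, limma adjusted p = 0.00122), and 1.58 with the GC and length trends removed (adjusted p = 0.000777). The call held with any 1 library left out, at an adjusted p of 0.00457 to 0.0228.

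FTL (ENSG00000087086, chr19:48965301-48966878, plus strand) encodes the light subunit, which favours formation of the mineral core. Its values were 3349, 2911 and 3857 TPM in DMSO 1, 2 and 3, and 9510, 8962 and 8237 TPM in penfluridol 1, 2 and 3. The lowest penfluridol value exceeded the highest DMSO value by more than the range within either group. The mean rose from 3372 ± 473 to 8903 ± 638 TPM (SD, n = 3), from rank 56 to rank 11. The log2 fold change was 1.41 (SE 0.14, 95% interval 1.08 to 1.74, limma adjusted p = 0.00231), or 1.22 without the GC and length trends (adjusted p = 0.00417). It also passed with any 1 library left out, at an adjusted p of 0.00455 to 0.0334.

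The ferritin subunits together made up 0.781%, 0.705% and 0.772% of all TPM in DMSO 1, 2 and 3 and 2.14%, 2.22% and 2.30% in penfluridol 1, 2 and 3. Every penfluridol library was above every DMSO library. The mean share was 0.753% ± 0.0414 against 2.22% ± 0.0822 (SD, n = 3), and the exact two-sided permutation p was 0.1, the smallest that 3 libraries against 3 allow. Since TPM sums to a fixed total, this rise left less room for other genes, by -0.02 on the log2 scale. The balance of subunits did not separate the groups. FTH1 was 1.32, 1.41 and 0.994 times FTL in DMSO 1, 2 and 3 and 1.24, 1.47 and 1.79 times in penfluridol 1, 2 and 3. The ratio averaged 1.24 ± 0.221 and 1.50 ± 0.275 (SD, n = 3; exact two-sided permutation p = 0.4).

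Both ferritin genes have many processed pseudogenes whose reads can be confused with the parent's. The table listed 24 FTH1 pseudogenes, 14 of them above 0 in some library, and their sum lay between 2.64 and 7.57 TPM, or 0.0354% to 0.0764% of FTH1 and its pseudogenes together. The 16 FTL pseudogenes summed to 0.15 to 0.94 TPM. The pseudogene rows were thus small beside the parents, although how the counting divided shared reads is not stated. FTH1 also overlaps BEST1, a channel gene on the opposite strand, which stood at 0.06 to 0.17 TPM in DMSO and 0.98 to 1.49 in penfluridol. Whether counting used strand is not stated, so reads of the overlap cannot be assigned to one of these genes. BEST1 was far below FTH1 in every library.

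**Figure D2:**
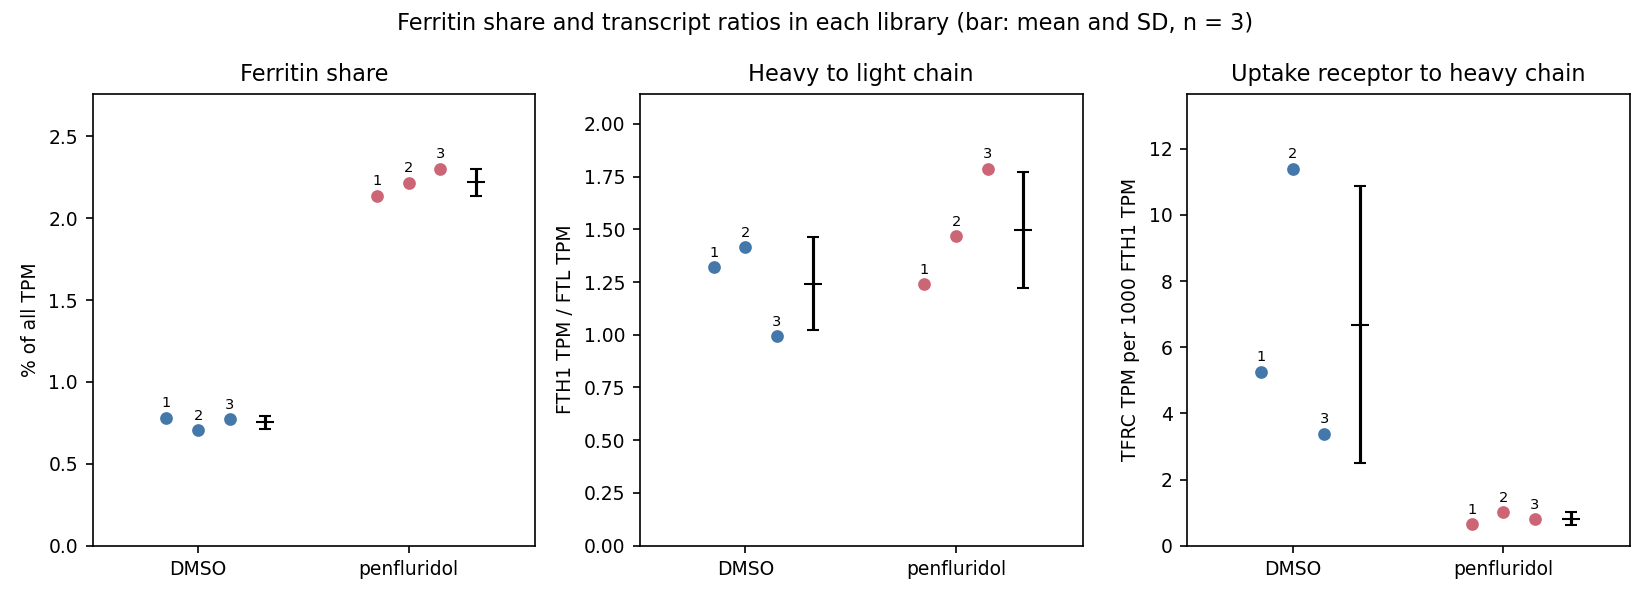
Left, FTH1 and FTL as a percent of all TPM; middle, FTH1 TPM divided by FTL TPM; right, TFRC TPM per 1000 TPM of FTH1, with a point for each library and the mean and SD of each group of 3. The ferritin share and the TFRC to FTH1 ratio do not overlap between groups, whereas the FTH1 to FTL ratio does.

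HMOX1 (ENSG00000100292, chr22:35380361-35394214, plus strand) encodes the inducible enzyme that opens the haem ring and frees iron, carbon monoxide and biliverdin. It was a low-abundance transcript, at 4.10, 2.45 and 3.54 TPM in DMSO 1, 2 and 3 and 10.97, 10.05 and 10.01 TPM in penfluridol 1, 2 and 3. The penfluridol values lay close together, above all DMSO values. The mean rose from 3.36 ± 0.839 to 10.3 ± 0.543 TPM (SD, n = 3), with a log2 fold change of 1.40 (SE 0.21, 95% interval 0.91 to 1.88, limma adjusted p = 0.00852). This scale, log2(TPM + 1), understates the change of a gene at such levels. With the GC and length trends removed it was 1.10 (adjusted p = 0.00410). HMOX1 has a GC content of 60.8%, and when the tested genes were divided by GC into 5 equal groups, the GC-richest had a median log2 fold change of 0.35 with 23.7% called higher. Without penfluridol 2 the size was the same, 1.41, but the adjusted p was 0.0639. In the other left-out fits it passed.

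TFRC (ENSG00000072274, chr3:196027183-196082189, minus strand) encodes transferrin receptor 1, the main route of iron uptake. Its values were 23.22, 46.92 and 12.96 TPM in DMSO 1, 2 and 3 and 7.56, 13.36 and 11.66 TPM in penfluridol 1, 2 and 3. DMSO 3 fell inside the penfluridol range while DMSO 1 and 2 lay above it. The means were 27.7 ± 17.4 and 10.9 ± 2.98 TPM (SD, n = 3), and the log2 difference of -1.13 (SE 0.44, 95% interval -2.16 to -0.09) did not pass (limma adjusted p = 0.127). Without DMSO 3 it was -1.56 (adjusted p = 0.0227). Removing the GC and length trends from all 6 libraries gave -0.49 (adjusted p = 0.147). TFRC is a GC-poor transcript (41.5%), and the GC-poorest of those 5 groups had a median log2 fold change of -0.68. The part of GC content in the TFRC values was not tested further.

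Set against ferritin, the receptor transcript was lower in every penfluridol library. There were 5.25, 11.4 and 3.38 TPM of TFRC per 1000 TPM of FTH1 in DMSO 1, 2 and 3 and 0.642, 1.02 and 0.792 in penfluridol 1, 2 and 3. The log2 difference was -2.87, with an exact two-sided permutation p of 0.1, the smallest possible here, and it stayed between -3.27 and -2.39 with 1 library left out. This ratio also carries the rise of FTH1, whose own log2 fold change was 1.68, while the TFRC values alone overlapped between groups. The ratio was not computed with the GC and length trends removed. SLC11A2 (ENSG00000110911, chr12:50979401-51028566, minus strand) encodes DMT1, which moves ferrous iron out of the endosome. It stood at 17.56, 19.67 and 14.44 TPM in DMSO and 13.74, 17.19 and 22.31 TPM in penfluridol, in library order, and the groups overlapped. Its log2 difference was 0.03 (95% interval -0.47 to 0.52, limma adjusted p = 0.943). Removing the GC and length trends gave 0.27 (95% interval 0.02 to 0.53), which did not pass either (adjusted p = 0.123).

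SLC40A1 (ENSG00000138449, chr2:189560579-189583758, minus strand) encodes ferroportin, the only known iron exporter of human cells. Its transcript was near the lower end of what the table records, at 1.15, 2.08 and 0.60 TPM in DMSO 1, 2 and 3 and 0.19, 0.36 and 0.41 TPM in penfluridol 1, 2 and 3. The groups did not overlap, with penfluridol lower. Its mean over the libraries was under the filter of 1 TPM. In a fit without that filter the log2 difference was -0.74 with a limma adjusted p of 0.224.

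NCOA4 (ENSG00000266412, chr10:46005088-46030714, minus strand) encodes the cargo receptor that delivers ferritin to the lysosome. Its values were 15.68, 21.33 and 6.14 TPM in DMSO 1, 2 and 3 and 3.39, 4.90 and 6.28 TPM in penfluridol 1, 2 and 3. DMSO 3 again lay within the penfluridol range, and the other DMSO libraries above it, and the transcript has a GC content of 46.1%. The log2 difference was -1.27 (SE 0.43, 95% interval -2.29 to -0.26) and did not pass (limma adjusted p = 0.0930). It passed under other settings: the adjusted p was 0.0269 at -0.96 with the GC and length trends removed, 0.0451 at -1.19 with median-of-ratios scaling, and 0.0105 at -1.75 without DMSO 3. With those trends removed and 1 library left out, it passed only without DMSO 3 (0.00344) and reached up to 0.0985 otherwise. PCBP1 (ENSG00000169564, chr2:70087454-70089203, plus strand) encodes a chaperone that hands ferrous iron to ferritin. It stood at 138.09, 138.91 and 111.15 TPM in DMSO and 140.17, 150.35 and 191.93 TPM in penfluridol. The penfluridol values were all higher, the lowest by little, and the log2 difference of 0.31 (95% interval -0.07 to 0.68) did not pass (limma adjusted p = 0.214). Trend removal reduced it to 0.10 (adjusted p = 0.561). The antisense gene PCBP1-AS1 overlaps it at 18.63 to 31.15 TPM, and without stated strand their reads cannot be told apart.

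IREB2 (ENSG00000136381, chr15:78437431-78501456, plus strand) encodes IRP2, which is degraded when iron is plentiful. It had 1.76, 3.68 and 0.94 TPM in DMSO 1, 2 and 3 and 0.29, 0.59 and 0.72 TPM in penfluridol 1, 2 and 3. All penfluridol values were lower, the highest of them near DMSO 3. The log2 difference was -0.94 (95% interval -1.79 to -0.10, limma adjusted p = 0.121), -1.24 without DMSO 3 (adjusted p = 0.0254), and -0.37 with the GC and length trends removed (adjusted p = 0.170). IREB2 is also GC-poor, at 43.1%. ACO1 (ENSG00000122729, chr9:32384603-32454769, plus strand) encodes IRP1, which is an aconitase while it carries an iron-sulphur cluster. It stood at 8.59, 9.0 and 5.36 TPM in DMSO and 5.20, 6.62 and 8.93 TPM in penfluridol, with the groups overlapping (log2 difference -0.13, 95% interval -0.75 to 0.50, limma adjusted p = 0.760; 0.03 with the trends removed, adjusted p = 0.877).

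**Figure D3:**
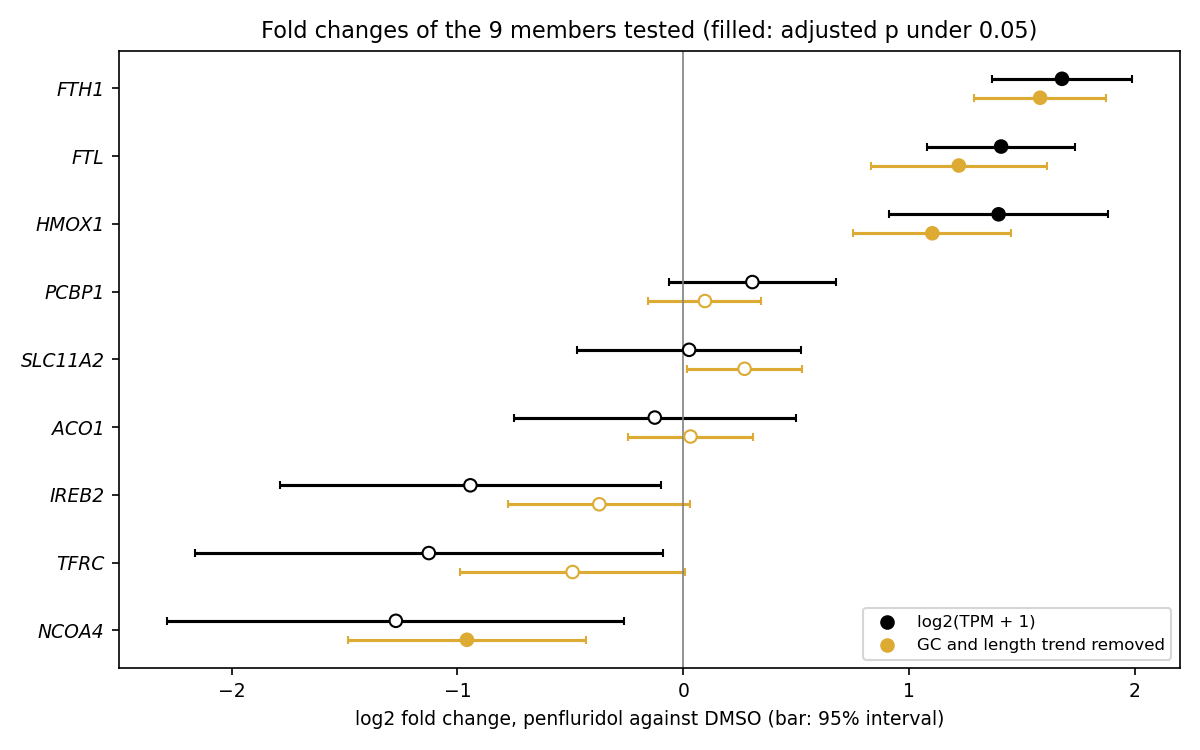
Log2 fold change of penfluridol against DMSO with its 95% interval for the 9 genes tested, on log2(TPM + 1) as deposited (black) and with the GC and length trends removed (yellow); filled symbols passed an adjusted p of 0.05. FTH1, FTL and HMOX1 passed in both, and NCOA4 passed in the second, at -0.96.

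**Figure D4:**
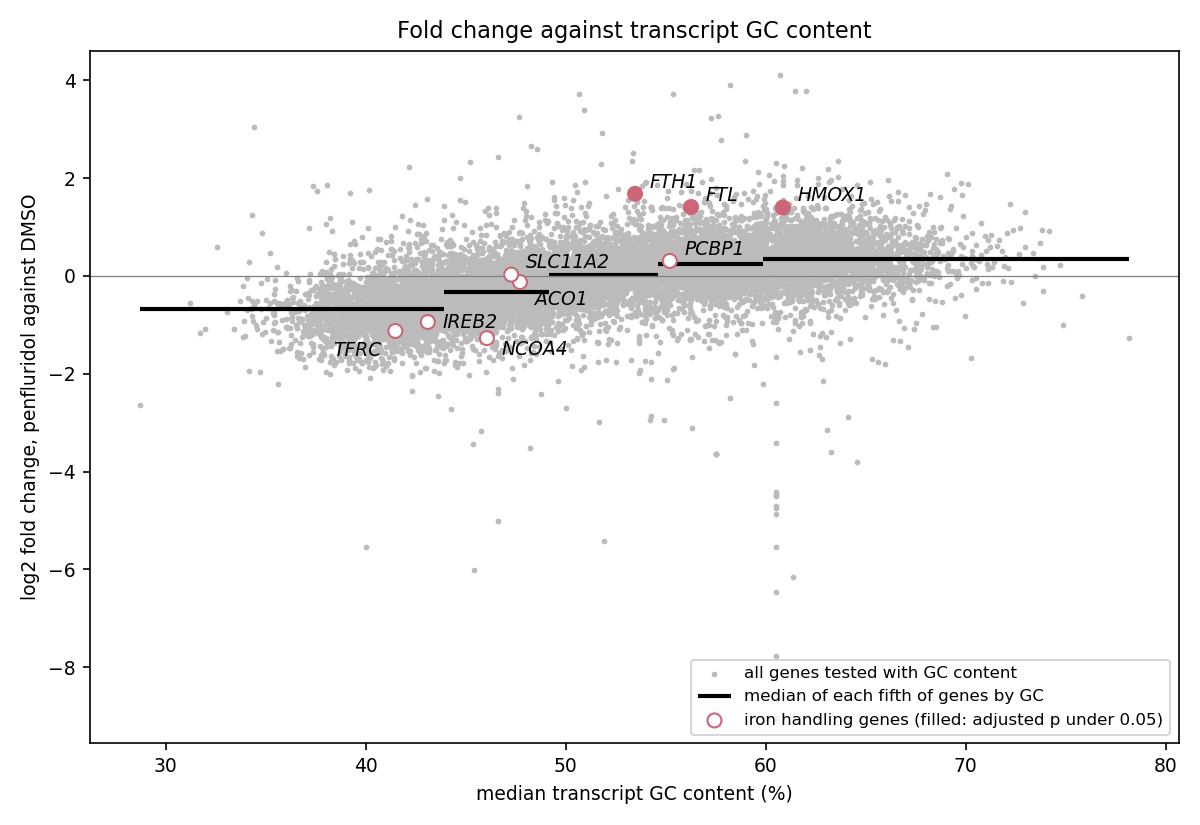
Log2 fold change of penfluridol against DMSO (y axis) against median transcript GC content in percent (x axis) for all genes tested (grey), with the median of each of 5 equal groups of genes by GC (black lines) and the iron handling genes (circles, filled where the adjusted p was under 0.05). The medians run from -0.68 in the GC-poorest group to 0.35 in the richest; FTH1, FTL and HMOX1 lie above the line of their group and NCOA4, TFRC and IREB2 below.

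In DMSO, TPM (which is per length and so can be compared between genes) fell from FTH1 and FTL, whose values overlapped, through PCBP1 to TFRC, SLC11A2, NCOA4 and ACO1, then HMOX1, IREB2 and SLC40A1. Neighbours overlapped from TFRC to ACO1 and again from HMOX1 to SLC40A1. After penfluridol, FTH1 no longer overlapped FTL, SLC11A2 stood above TFRC, and HMOX1 stood above ACO1 and NCOA4 and overlapped TFRC. HMOX1 was thus below NCOA4 in every DMSO library and above it in every penfluridol library. HMOX1 (60.8% GC) is richer in GC than NCOA4 (46.1%), ACO1 (47.7%) and TFRC (41.5%), and the libraries differed in their GC trend. The order was not computed with the GC and length trends removed, so the part of GC content in it was not tested.

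Other genes of iron and haem handling were taken from 11 lists of 126 genes, 100 of them tested, which include the genes above. Of the 100, 18 were called higher and 6 lower (24%, against 13.2% of all genes), with a median log2 fold change of 0.06. The lists were chosen with earlier results of these data known, so the share is a description. The counts of each list below stand beside 9.75% of all genes tested called higher and 3.48% called lower. Only 5 of these 24 calls, FTH1, FTL, ERFE, MAFF and CHAC1, held with each library left out in turn. Without penfluridol 2, 5 of the 24 calls were kept; without DMSO 1, 7; without penfluridol 1, 9; without DMSO 2, 12; without penfluridol 3, 16; without DMSO 3, 24. Removal of the GC and length trends kept 18 of the calls. In that fit 16 of the list genes were called higher and 8 lower, where 19.1% of all genes were called, so that the share in the lists was closer to the background.

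**Figure D5:**
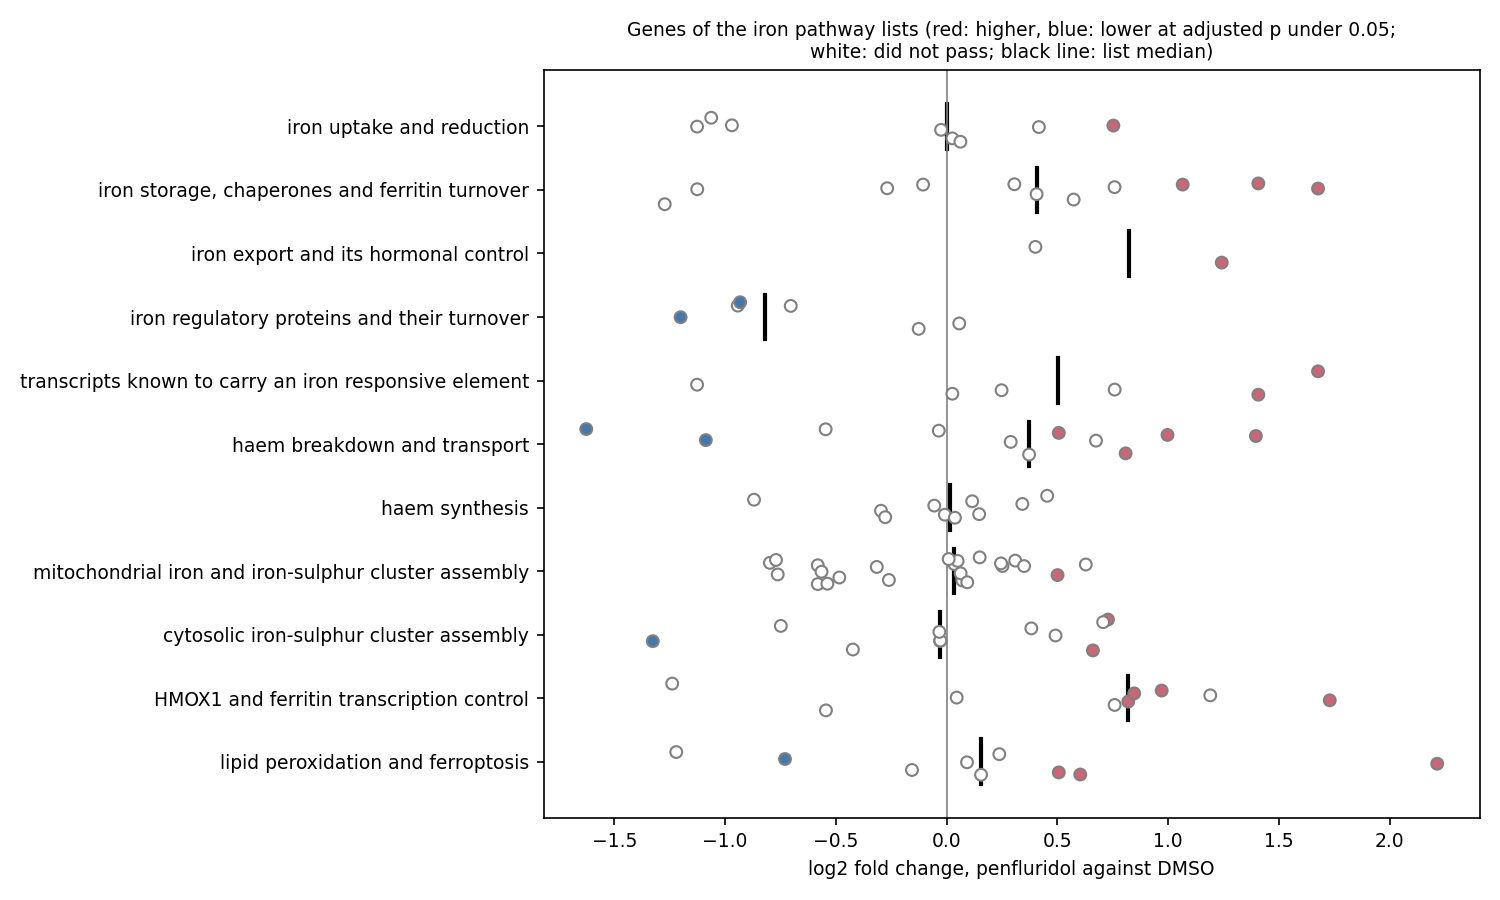
Log2 fold change of penfluridol against DMSO for each gene tested in the 11 iron and haem lists (circles; red higher and blue lower at an adjusted p under 0.05, white not passing), with the median of each list (black line). The lists of transcription control and of iron export (2 genes tested) each had a median of 0.82, and that of the iron regulatory proteins -0.82. With the GC and length trends removed these medians were 0.56, 0.51 and -0.31.

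Among uptake genes 1 of 8 tested was called higher and 0 lower, with a median of 0.00 on the log2 scale. It was LCN2, lipocalin 2, which binds iron-carrying siderophores and rose from 141 ± 20.9 to 236 ± 3.31 TPM (SD, n = 3; log2 fold change 0.75, limma adjusted p = 0.0141). Of 11 tested storage and ferritin turnover genes 3 were called higher, the ferritin subunits and PCBP4, a poly(C)-binding protein, which rose from 7.98 ± 1.59 to 17.7 ± 1.48 TPM (log2 fold change 1.07, limma adjusted p = 0.0127). CD63, a membrane protein of the vesicles that can carry ferritin out of cells, was the most abundant of the others, at 1113 and 1652 TPM (adjusted p = 0.0545). The storage median was 0.41. After trend removal PCBP2, another ferritin chaperone, was called as well (0.58, adjusted p = 0.00830), and NCOA4 and PROM2 were called lower.

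Of 11 genes for iron export and its hormones, 2 were tested. ERFE, the hormone erythroferrone, known from red cell precursors as a suppressor of hepcidin, rose from 51.3 ± 1.54 to 124 ± 20.4 TPM (SD, n = 3), a log2 fold change of 1.24 (SE 0.14, limma adjusted p = 0.00350). Without the GC and length trends it was 0.93 (adjusted p = 0.00371), and with 1 library left out the adjusted p stayed between 0.00714 and 0.0366. FURIN, a protease that processes hepcidin, stood at 58.8 and 77.8 TPM (adjusted p = 0.0891). Among the erythroid markers AHSP was listed at 0 in every library, and the summed erythroid list was 5.92 to 7.92 TPM in DMSO and 2.76 to 8.07 in penfluridol.

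The regulatory proteins and the ligase that degrades IRP2 gave 0 of 6 higher and 2 lower, with a median of -0.82. SKP1, a scaffold shared by many ubiquitin ligases, fell from 425 ± 134 to 180 ± 34.6 TPM (log2 fold change -1.20, limma adjusted p = 0.0294), and RBX1, the ring subunit of those ligases, fell from 125 ± 16.9 to 66.2 ± 17.2 TPM (a log2 change of -0.93, adjusted p = 0.0274; SD, n = 3 for each). FBXL5, the subunit that senses iron, stood at 24.6 and 25.6 TPM (adjusted p = 0.783). This list is GC-poor, with a median of 43.5% against 51.8% over all genes tested. With the GC and length trends removed its median was -0.31 and SKP1 was the only call (-0.54, adjusted p = 0.0156), with RBX1 at -0.50 (adjusted p = 0.0513). Of the 6 fits with a library left out, SKP1 was called in 1 and RBX1 in 2, at adjusted p up to 0.126 for SKP1 without DMSO 1 and 0.123 for RBX1 without penfluridol 2. Transcripts known to carry an iron responsive element gave 2 of 6 called higher, FTH1 and FTL.

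Haem breakdown and transport gave 4 of 11 higher and 2 lower, with a median of 0.37. ABCB6, a transporter of porphyrins, rose from 15.1 ± 1.34 to 31.0 ± 1.88 TPM (SD, n = 3; log2 fold change 1.00, limma adjusted p = 0.00628, and 0.0599 without penfluridol 2). BLVRB, a biliverdin reductase, rose from 210 to 369 TPM (adjusted p = 0.0258) and POR, which gives electrons to haem oxygenase, from 41.4 to 59.1 TPM (adjusted p = 0.0297). Neither passed with the GC and length trends removed, at 0.51 (adjusted p = 0.0510) and 0.21 (adjusted p = 0.112) on the log2 scale. PGRMC1, a haem-binding membrane protein, fell from 86.5 ± 40.1 to 25.3 ± 5.39 TPM (a log2 change of -1.63, adjusted p = 0.0332), and FLVCR2, a membrane transporter of the haem exporter family, from 4.98 ± 0.161 to 1.92 ± 0.881 TPM (a log2 change of -1.09, adjusted p = 0.0470). Haem synthesis gave 0 of 10 called, and TSPO, the most abundant of them, stood at 321 and 330 TPM (adjusted p = 0.895).

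Mitochondrial iron and iron-sulphur assembly gave 1 of 23 higher and 0 lower, with a median of 0.03. The call was SLC25A28, mitoferrin 2, which carries iron into mitochondria (29.9 ± 2.86 to 42.7 ± 3.68 TPM, SD, n = 3; limma adjusted p = 0.0494). It was lost with the GC and length trends removed, at an adjusted p of 0.129. That fit called ISCU, the scaffold on which clusters are built (0.53, adjusted p = 0.0111), and HSPA9, a chaperone of cluster transfer (0.72, adjusted p = 0.0355), higher and BOLA3, a late-acting assembly factor (-0.48, adjusted p = 0.00860), lower. Cytosolic assembly gave 2 of 11 higher and 1 lower. CIAO2B, a targeting subunit, rose from 248 ± 26.4 to 392 ± 20.0 TPM (a log2 change of 0.66, adjusted p = 0.0136). Its paralogue CIAO2A, which serves IRP1 in human cells, fell from 131 ± 50.4 to 49.3 ± 9.90 TPM (-1.33, adjusted p = 0.0313). CIAO3 rose by 0.73 (adjusted p = 0.0328), and did not pass with the trends removed (0.46, adjusted p = 0.0588). The log2 changes of CIAO2B and CIAO2A were then 0.44 (adjusted p = 0.0438) and -0.71 (adjusted p = 0.00371).

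Regulators of HMOX1 and ferritin transcription gave 4 of 9 higher and 0 lower, with a median of 0.82, where 9.75% of all genes tested were called higher. The same 4 were called with the GC and length trends removed, at a median of 0.56. The list had a median GC content of 57.2%, and in the group of tested genes that spans this value, of the 5 by GC, 16.7% were called higher. MAFF, a small MAF partner of NRF2 and BACH1, rose from 7.25 ± 1.38 to 26.2 ± 2.45 TPM (SD, n = 3), a log2 fold change of 1.73 (SE 0.17, limma adjusted p = 0.00247). MAFK, another small MAF, rose from 7.52 ± 0.888 to 15.6 ± 0.633 TPM (a log2 change of 0.97, adjusted p = 0.0109; 0.56 with the trends removed, adjusted p = 0.0124). ATF4, the transcription factor of the integrated stress response, rose from 443 ± 24.5 to 801 ± 98.0 TPM (0.85, adjusted p = 0.00728), and NFE2L1, a relative of NRF2, from 57.2 ± 6.35 to 103 ± 23.5 TPM (0.82, adjusted p = 0.0297). Each of MAFK, ATF4 and NFE2L1 lost its call without penfluridol 2, at 0.0818, 0.0554 and 0.117. NFE2L2, which encodes NRF2, stood at 4.04 ± 2.55 and 2.19 ± 0.369 TPM (adjusted p = 0.327), KEAP1, its inhibitor, at 81.7 and 84.2 TPM, and BACH1 at 0.663 and 0.407 TPM, below the filter.

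Promoters from 250 bases before to 50 after the start were held for 8 of the 10 genes in RefSeq (GRCh38.p14), not for FTH1 or HMOX1. The letters TGANNNNGC are a loose form of the core of the antioxidant response element, with any base allowed at N. They were found on either strand in 4 of the 8 (NCOA4, PCBP1, SLC11A2 and SLC40A1) and in 41.8% of 35116 promoters. The letters TGATGNAA, the core of the composite site of ATF4, were found in SLC11A2 and in 3.62% of promoters. For both sets of letters a gene was counted if any of its promoters held them, whereas the percent is of promoters. The counts and percents are thus in unlike units. The FTL window held neither set of letters, and sites outside the windows were not searched.

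Iron-dependent lipid peroxidation genes gave 3 of 9 higher and 1 lower, with a median of 0.16. CHAC1, which degrades glutathione and is a target of ATF4, rose from 8.46 ± 0.516 to 43.1 ± 5.67 TPM (SD, n = 3), a log2 fold change of 2.21 (SE 0.15, limma adjusted p = 0.000758). AIFM2, which reduces coenzyme Q at the membrane, rose from 28.2 to 43.1 TPM (0.60, adjusted p = 0.0279; 0.39 with the GC and length trends removed, adjusted p = 0.114), and LPCAT3, which builds polyunsaturated phospholipids, fell from 48.6 ± 3.66 to 29.1 ± 5.42 TPM (-0.73, adjusted p = 0.0282). GPX4, the peroxidase that removes lipid peroxides, stood at 1950 and 2169 TPM (adjusted p = 0.569).

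Macrophages express ferritin and HMOX1 strongly, and their markers were low. The 8 markers summed to 0.59 to 1.46 TPM in DMSO and 4.55 to 4.97 TPM in penfluridol. CD68, a lysosomal membrane protein, made up most of this, rising from 0.723 ± 0.332 to 4.62 ± 0.210 TPM (SD, n = 3; log2 fold change 1.72, limma adjusted p = 0.00653). CD163, AIF1, TYROBP and MRC1 were listed at 0 in every library. Stromal markers summed to 1.81 to 4.50 TPM and endothelial ones to 0.20 to 0.92 TPM over the 6 libraries, with DCN, LUM and PDGFRB at 0. Of 8 epithelial markers tested, 1 was called higher and 1 lower. KRT8, a keratin, fell from 1988 to 1109 TPM (a log2 change of -0.84, adjusted p = 0.00903) and CLDN3, a tight junction protein, rose from 151 to 256 TPM (0.76, adjusted p = 0.0224). KRT18 stood at 1492 and 1045 TPM (adjusted p = 0.0843), KRT19 at 686 and 489 TPM (adjusted p = 0.0725) and EPCAM at 184 and 88.5 TPM (adjusted p = 0.134). With the GC and length trends removed 0 were called higher and 3 lower. These were KRT8 (-1.07, adjusted p = 0.00290), KRT18 (-0.76, adjusted p = 0.0267) and KRT19 (-0.77, adjusted p = 0.00850), while CLDN3 was at 0.36 (adjusted p = 0.0675).

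The genes whose levels followed FTH1 most closely over the 6 libraries, among 7442 genes of at least 5 TPM, were YARS1 (Pearson correlation 0.9996), PRSS22 (0.999) and SLC25A25 (0.999). YARS1, a tyrosyl-tRNA synthetase, averaged 99.6 TPM in DMSO and 222 in penfluridol. Those closest to HMOX1 were REXO4 (0.999), STAT5A (0.997) and SLC66A1 (0.997), and SLC66A1, a lysosomal amino acid transporter, averaged 7.91 and 17.02 TPM. These correlations mostly carry the difference between the groups, and are given as a description.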

How the data were processed

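RNA of DMSO-treated and penfluridol-treated Ishikawa cells was made into libraries with a SMARTer mRNA kit, per the labels' protocols. The deposited values are TPM that the authors rounded to 2 decimals; the unit was read from the column sums, and fastp, RSEM and GRCh38.p13 are listed in the submitters' processing notes. Tool versions, the aligner, the annotation and strandedness are not given in the sources that were used. Groups and replicate numbers follow the labels. Counts were not used here, so a count test was not made.

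Genes averaging 1 TPM or more were fitted on log2(TPM + 1) with limma 3.58.1 in R 4.3.3 (intercept and treatment, trended moderated variances), and p-values are two-sided. Ratios were compared by exact permutation in scipy 1.17.1. GC content and length are medians over GENCODE release 29 transcripts (12112 of 12201 tested genes). Their trends were removed as splines fitted to each library's deviation from the gene means. The fit was tested on simulated data. The alternatives were another pseudocount, other filters, median-of-ratios scaling, the trend removal, a replicate block, constant prior variance and each library left out. Trend removal with a library left out was added after seeing the data.

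The 10 genes and the lists were chosen with earlier results of these data known. Genes named from each list are the called members, at most the 4 with the smallest p, and the most abundant of the rest; a few others (such as NFE2L2 and BACH1) were named after their values were seen. Some genes that this rule names are not reported here. Genes like FTH1 and HMOX1 are the 3 with the highest correlation.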

Additional observations from a re-analysis of the deposited data

How the results depend on the processing

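FTH1 passed under every alternative run, at an adjusted p of up to 0.0462 with the replicate block. Whether the replicate numbers pair the libraries is not stated. Deviations of same-numbered libraries from their group means correlated at -0.0081, -0.0061 and -0.348. With 3 libraries in each group, these values cannot settle whether libraries shared a day or batch. With the replicate block, calls over all genes fell to 62 higher and 12 lower, among the iron handling genes 1 was called higher, and in the lists 2 were called higher and 0 lower; FTL kept 1.41 (adjusted p = 0.0584) and HMOX1 1.40 (0.0872) but did not pass. With the GC and length trends removed and the block together, 385 genes were higher and 248 lower, 6 and 3 in the lists, and FTL was 1.22 (0.0519). With those trends removed and no block, 1081 genes were lower, NCOA4 passed at -0.96, the 1 iron handling gene called lower, and ACO1 reversed to 0.032, with or without the block. With 1 library left out as well, 0 to 1 iron handling genes were called lower, NCOA4 was between -1.21 and -0.80, and ACO1 between -0.01 and 0.09; its positive values were 0.087 without DMSO 1, 0.019 without DMSO 3, 0.062, 0.033 and 0.0010 without penfluridol 1, 2 and 3. Median-of-ratios scaling gave 1 iron handling gene lower, NCOA4 at -1.19. Without a filter 194 genes were lower and 0 of the lists, and without a variance trend 1 of the lists.

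Leaving out each library, over all genes 197 to 1692 were called higher and 40 to 2261 lower, in the lists 5 to 27 and 0 to 23, and among the iron handling genes 2 to 3 and 0 to 3. The log2 fold change was 1.24 to 1.52 for HMOX1, -1.56 to -0.67 for TFRC, -1.75 to -0.93 for NCOA4, -1.24 to -0.60 for IREB2, -0.33 to 0.04 for ACO1 and -0.14 to 0.19 for SLC11A2. ACO1 reversed to 0.037 without penfluridol 1, and SLC11A2 to -0.09 without DMSO 3 and -0.14 without penfluridol 3. The 2261 genes called lower, and TFRC, NCOA4 and IREB2 among them, came without DMSO 3. The cause of these shifts was not tested. IREB2 had no value under the stricter filter of 5 TPM in at least 3 libraries. With TPM alone, counting error at the low levels of SLC40A1, IREB2 and HMOX1 cannot be set apart from other spread.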
